A study of Mus musculus with 16 samples.

Results

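The genes described here are 35 T cell genes, taken by their symbols from the 54532 genes of a bulk RNA sequencing table of mouse inguinal white adipose tissue (iWAT), the fat pad under the skin of the groin. The list holds the chains of the T cell receptor, the surface proteins and signalling molecules around it, and genes of T cell homing and of regulatory T cells. It was chosen by gene name, with earlier results of these data known. The 16 libraries come from male mice in 4 groups of 4, aged 8 to 10 weeks at the start, which ate chow containing doxycycline at 200 mg/kg over 5 days. The groups labelled Has2_TG and PH20_TG carry a doxycycline-inducible transgene, the hyaluronan synthase Has2 or the hyaluronidase PH20 (gene symbol Spam1), and Has2_WT and PH20_WT are their littermates without it. Per the methods of the study, every mouse, controls included, carries rtTA under the adiponectin promoter, which is active in adipocytes, so the transgenes are driven in adipocytes. Libraries are named by group and number, as in Has2_WT1.

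T cells recognise peptides held on MHC molecules through the T cell receptor, whose alpha and beta chains bind the peptide and whose CD3 and zeta chains carry the signal into the cell. The kinase Lck, brought close by the co-receptors CD4 or CD8, phosphorylates the CD3 and zeta chains, Zap70 binds there, and the adaptor Lat then gathers the next layer of enzymes. Healthy adipose tissue holds few T cells, among them regulatory T cells that express Foxp3. The inguinal fat pad of the mouse also contains a lymph node, in which naive T cells that carry Ccr7 are packed beside B cells and specialised stroma.

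Each library held between 14421692 and 26751729 reads on genes, and the genes with at least 1 read from 15857 to 21986. Has2 stood at 1.86 to 3.24 FPKM (fragments scaled to gene length and sequencing depth) in Has2_TG and at 0.417 to 0.806 in Has2_WT. Spam1 had 5 to 12 reads in PH20_TG2, PH20_TG3 and PH20_TG4 and 0 in the library labelled PH20_TG1, where 0 allows up to 3 reads or 0.0790 FPKM, so the transgene does not bear out that label. Has2 was at 3.32 FPKM in the library labelled PH20_TG1 and at 3.26 in PH20_TG4, against 0.330 to 0.897 in PH20_WT. Adipocyte genes were high in every library, with a mean log2(FPKM + 0.1) of the 12 adipocyte markers between 8.41 and 9.71. Nothing in the labels says that 2 libraries came from 1 animal, and p-values measure the spread between these libraries.

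T cell genes were high in 4 of the 8 control libraries, namely Has2_WT1, Has2_WT2, PH20_WT1 and PH20_WT3, and low in the other 4 controls and in all 8 transgenic libraries. In 34 of the 35 genes these 4 controls were the 4 highest of the 16 libraries. The exception was Tnfrsf18, where Has2_WT4 at 4.09 FPKM stood above PH20_WT3 at 2.96. The FPKM summed over the 35 genes was 516 in Has2_WT1, 304 in Has2_WT2, 744 in PH20_WT1 and 295 in PH20_WT3. The sum was 22.4 in Has2_WT3, 16.5 in Has2_WT4, 34.4 in PH20_WT2 and 42.2 in PH20_WT4. It lay between 10.98 and 25.1 in Has2_TG and between 24.0 and 39.5 in PH20_TG. The control groups were thus split within themselves, and the low controls lay in or near the range of their transgenic littermates. In bulk tissue, fewer T cells and less RNA per T cell cannot be told apart.

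**Figure D1:**
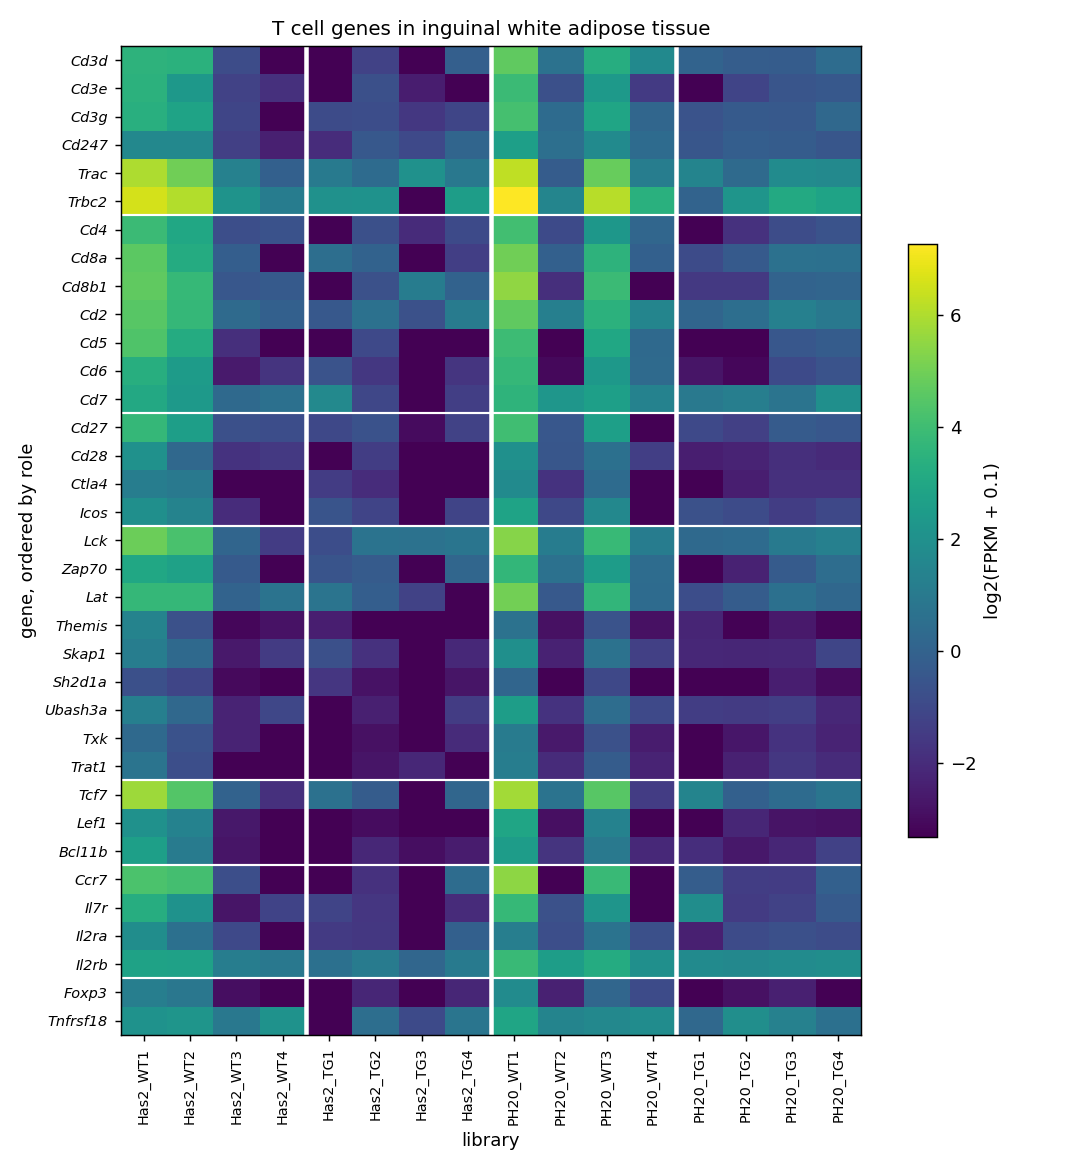
Level of each of the 35 T cell genes (rows, ordered by role, white lines between roles) in each of the 16 libraries (columns, white lines between groups), as log2(FPKM + 0.1) on the colour scale. Has2_WT1, Has2_WT2, PH20_WT1 and PH20_WT3 form bright columns for nearly every gene, while the other 12 libraries are dark.

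The same 4 control libraries were the ones rich in genes of B cells and of lymph node stroma. The mean log2(FPKM + 0.1) of the B cell list was 4.90 in Has2_WT1, 4.38 in Has2_WT2, 4.71 in PH20_WT1 and 3.42 in PH20_WT3, and between -0.69 and 0.03 in the other 12. For lymph node stroma it was 0.66 to 1.10 in the 4 and -1.62 to -1.22 in the other 12. Cd79a, a chain of the B cell receptor complex, was at 50.6 to 123 FPKM in the 4 and at 0.262 to 2.14 elsewhere. Glycam1, made by the high endothelial venules through which lymphocytes enter lymph nodes, was at 3.68 to 13.6 FPKM in the 4 and was listed at 0 in 11 of the other 12, with 0.0562 in PH20_TG3. Not every gene of the stroma list followed. Enpp2 was at 29.9 to 50.1 FPKM in the 4 and 20.9 to 48.1 elsewhere, and Lyve1 at 7.11 to 14.8 and 0.862 to 22.1. Ccl19, Madcam1 and Ackr4 were at 0 in Has2_WT1. Summed over each list, B cell genes reached 400 to 901 FPKM in the 4 and 76.8 to 241 elsewhere, where Ighm and Ebf1 made up most of the sum. These 4 libraries are called the rich controls below. What their B cell and stroma content has to do with their T cell genes was not tested, and the fits given below cannot tell them apart.

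**Figure D2:**
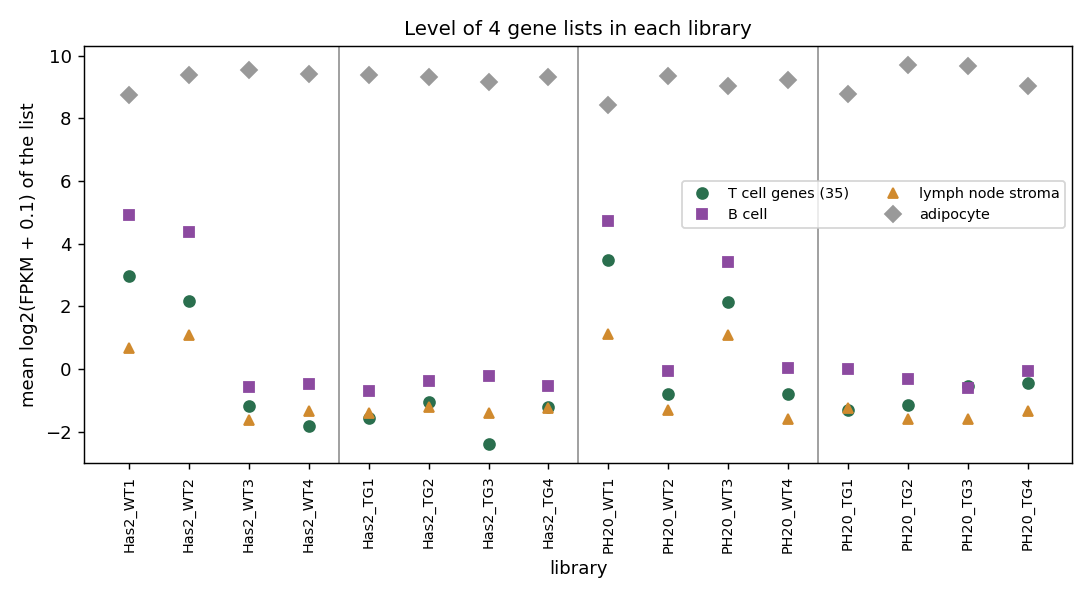
Mean log2(FPKM + 0.1) of the 35 T cell genes, of the B cell, lymph node stroma and adipocyte lists in each library, with vertical lines between the 4 groups. The T cell, B cell and lymph node stroma points rise together in Has2_WT1, Has2_WT2, PH20_WT1 and PH20_WT3, and the adipocyte points lie between 8.41 and 9.71 throughout.

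The promoters of the T cell genes were searched for short motifs of factors that T cells use. RefSeq promoter windows (GRCm38.p6, 250 bases before to 50 after a start) matched 22 of the 35 genes, with 32 windows. The letters searched, on both strands, were CTTTGA for the factors Tcf7 and Lef1, TGTGGT for Runx factors and CAGGAAG for Ets factors, and no one of these strings contains another. CTTTGA was in 9 of the 32 windows (28.1%), against 16% of all 32851 windows. CAGGAAG was in 10 windows (31.2%), against 13.3% of all, and TGTGGT in 6 (18.8%), against 16.8%. Below are 6 of these matches, written 5′ to 3′ on the strand of the gene with 10 bases to each side and the motif, or its reverse complement, in capitals, shown because their genes span the receptor, the first kinases and a transcription factor. They are matches of letters and not sites shown to be bound.
Cd3d, chr9:44981703-44981728, plus strand: cccactgttgCTTTGAcagtcttaca
Cd3d, chr9:44981722-44981747, plus strand: tcttacaccaTCAAAGgcagaaggta
Lef1, chr3:131156164-131156189, plus strand: ttgtctgttcTCAAAGtcaggtcttg
Cd3e, chr9:45009612-45009638, minus strand: cccctctacaCTTCCTGtgtggggttc
Zap70, chr1:36764466-36764492, plus strand: tgtgttagcaCAGGAAGgaactgtgct
Lck, chr4:129573684-129573709, minus strand: gctggaggctTGTGGTtgggttgctg

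Has2_TG was compared with Has2_WT to ask what raised hyaluronan synthesis in adipocytes does to the tissue, and PH20_TG with PH20_WT to ask the same of hyaluronan breakdown. In Has2_TG, 30 of the 35 genes reached a mean of 50 reads and were tested with limma on log2(FPKM + 0.1). At an unadjusted p under 0.05, the rule by which a gene is said to be called, lower or higher here, 8 were lower, namely Tnfrsf18, Lat, Cd28, Cd4, Cd3e, Cd7, Cd27 and Il2rb. Over all 12606 genes tested, 3.75% were lower and 6.25% higher by the same rule. No T cell gene was higher, and none passed once p-values were adjusted over all genes (limma, Benjamini-Hochberg), where the smallest adjusted p was 0.290 for Tnfrsf18, and voom weights called 2. The log2 fold change was negative in 30 of 30, with a median of -2.30, against -0.03 over all genes and 53.9% of all genes negative. Ctla4, Sh2d1a, Ubash3a, Trat1 and Foxp3 had too few reads for the test. Many genes reached 50 reads only through their high control libraries, as 20 did so without Has2_WT1, and the count and median describe the tested genes without further weight.

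In PH20_TG, 32 of the 35 were tested and 12 were lower at an unadjusted p under 0.05, namely Cd28, Cd247, Cd3d, Foxp3, Zap70, Il2rb, Cd4, Cd2, Cd7, Cd3g, Lck and Il2ra. Over all 12532 genes tested, 3.39% were lower and 3.2% higher. No T cell gene was higher, none passed after adjustment, voom weights called 3, and 32 of 32 had a negative log2 fold change, with a median of -1.86 against 0.01 over all genes, of which 48.7% were negative. Ctla4, Sh2d1a and Trat1 were not tested. Some genes had enough reads for the test only through their high control libraries, as 26 did so without PH20_WT1. Of these 26, 24 had a negative log2 fold change in that fit. The count of negative genes and the median with all libraries thus describe the tested genes without further weight. Without the library labelled PH20_TG1, whose Spam1 count was 0, the 12 became 6 (Cd28, Cd247, Cd3d, Foxp3, Zap70 and Il2rb), against 4.88% of all genes lower.

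Both counts moved with the control libraries rich in B cell and lymph node stroma genes. These libraries were also the 4 highest of the 16 in 34 of the 35 T cell genes. Leaving them out was thus bound to move the log2 fold changes of these genes upward, and it left 2 controls against 4 transgenic libraries. Such fits cannot tell B cell and stroma content from the T cell level itself. The fits without both rich controls of a study kept the genes tested above, with no new read minimum. Some of these genes were thus rare in the libraries left. Cd8b1 had 4 and 0 reads in PH20_WT2 and PH20_WT4 and 6 to 23 in PH20_TG, and Cd28 had 60 and 28 against 9 to 17. In fits chosen after seeing the data, without Has2_WT1 and Has2_WT2, no T cell gene was lower or higher in Has2_TG by limma (3.53% and 5.78% of all genes were), 15 of 30 log2 fold changes were negative (51.7% of all genes) and their median was -0.03. Without PH20_WT1 and PH20_WT3, 3 were lower in PH20_TG (Cd3d, Cd247 and Cd28) and 2 were higher (Ccr7 and Cd8b1), against 2.09% and 2.51% of all genes, and 21 of 32 were negative (49.2% of all genes) with a median of -0.27. The fits that left out 1 library applied the read minimum anew, so their counts rest on other sets of genes. Leaving out Has2_WT1 alone left 2 of 20 tested genes lower, and leaving out Has2_WT2 alone left 1 of 30. Leaving out a control poor in these genes did the reverse, with 17 lower without Has2_WT3 and 25 without Has2_WT4, and 5 were lower without Has2_TG1. In PH20_TG the count was 6 without PH20_WT1, 6 without PH20_WT3, 23 without PH20_WT2 and 20 without PH20_WT4.

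**Figure D3:**
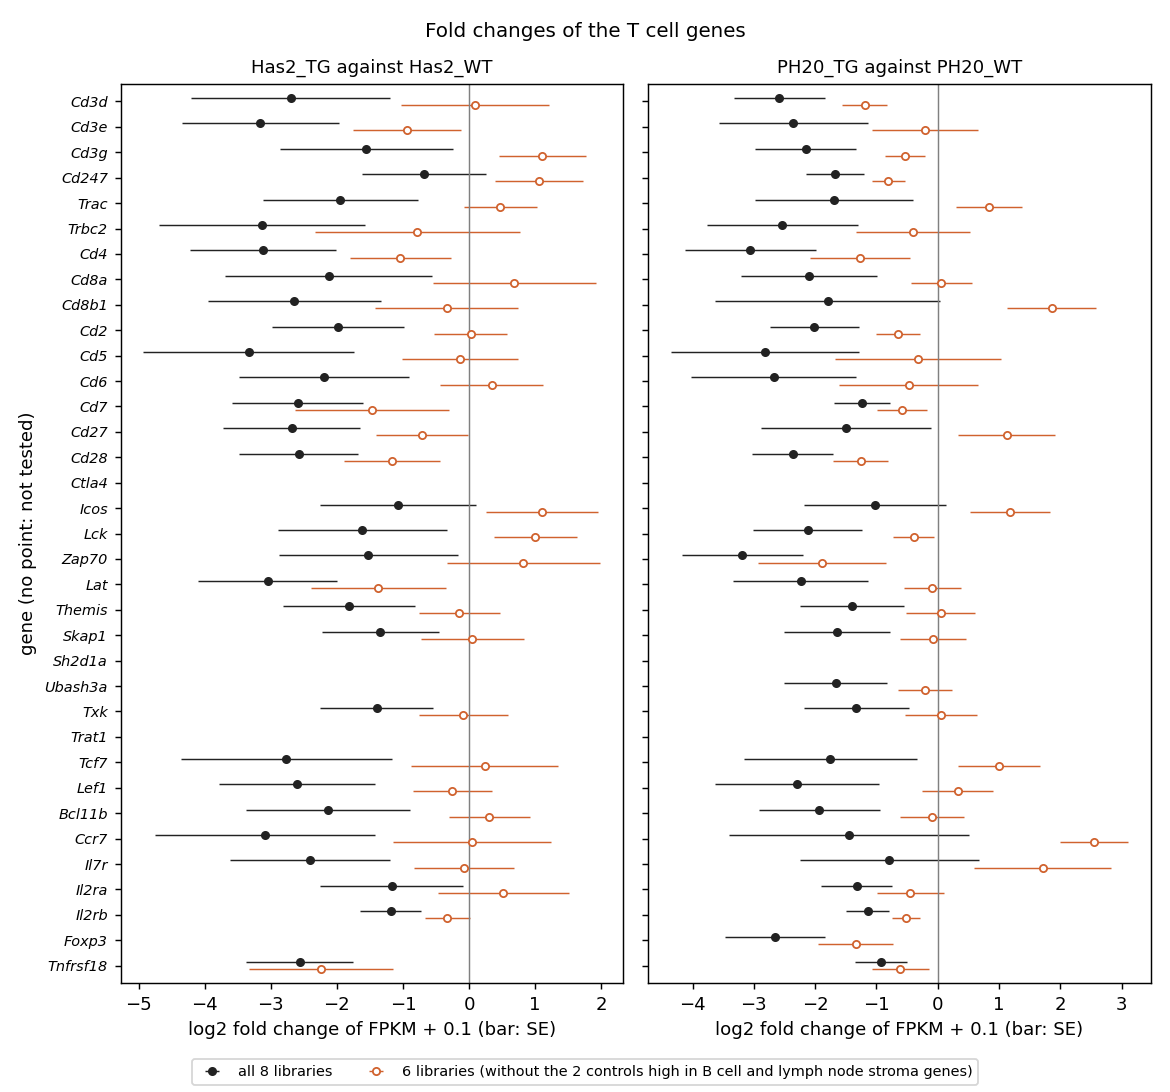
Log2 fold change of FPKM + 0.1 with its SE for each T cell gene in Has2_TG against Has2_WT (left) and PH20_TG against PH20_WT (right), from all 8 libraries of a study (filled) and from the 6 left without the controls rich in B cell and lymph node stroma genes (open). Filled points lie left of 0 for every tested gene, and open points fall on both sides of 0.

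The receptor complex held the 2 T cell genes with the highest FPKM. Trbc2, the constant region of the beta chain, reached 67.1 to 156 FPKM in the 4 rich controls and 0 to 10.6 in the other 12, and Trac, that of the alpha chain, 27.8 to 77.6 and 0.748 to 4.06. Reads of Trbc2 may be shared with its near-identical neighbour Trbc1, so its level is uncertain. Cd3d, Cd3e and Cd3g sit together on chromosome 9 between 44969572 and 45009627.

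Cd3e, the epsilon chain of CD3 (chromosome 9, 44998740 to 45009627), was at 11.3, 4.88, 0.332 and 0.1797 FPKM in Has2_WT1 to Has2_WT4 and at 0, 0.502, 0.0786 and 0 in Has2_TG1 to Has2_TG4. In the other study it was at 14.9, 0.498, 5.24 and 0.249 in PH20_WT1 to PH20_WT4 and at 0, 0.357, 0.602 and 0.654 in the libraries labelled PH20_TG1 to PH20_TG4. The groups overlapped in both studies, and the high values are those of the 4 rich controls. The log2 fold change was -3.16 (SE 1.19, adjusted p = 0.397) in Has2_TG and -2.36 (SE 1.22, adjusted p = 0.731) in PH20_TG. Only the Has2 value was called. Without the rich controls these were -0.94 (SE 0.82) and -0.21 (SE 0.86), and neither passed.

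Cd247, the zeta chain (chromosome 1, 165788681 to 165877277), was at 6.17, 1.37, 3.26 and 1.19 FPKM in PH20_WT1 to PH20_WT4 and at 0.613, 0.792, 0.754 and 0.619 in PH20_TG1 to PH20_TG4. Every PH20_TG library lay below every PH20_WT library, which 2.33% of all genes tested showed, and the log2 fold change was -1.67 (SE 0.48, adjusted p = 0.664). In the Has2 study it was at 2.97, 2.99, 0.298 and 0.0884 in Has2_WT and at 0.156, 0.667, 0.401 and 0.987 in Has2_TG. There the groups overlapped, with a log2 fold change of -0.68 (SE 0.93, adjusted p = 0.864), not called, that became 1.06 (SE 0.66) without the rich controls. Without PH20_WT1 and PH20_WT3 the PH20 difference was -0.80 (SE 0.26, adjusted p = 0.999), still called and with no overlap. Cd3d was likewise apart in the PH20 study, with a lowest control of 1.51 and a highest PH20_TG library of 1.24 FPKM, and its log2 fold change was -2.58 (SE 0.75, adjusted p = 0.664), or -1.19 (SE 0.37, adjusted p = 0.999) without the rich controls, called both times. Cd247 has genes on the opposite strand within its bounds, and whether strand was used in counting is not given in the sources used here, so reads of the partners cannot be told apart. The same holds for 13 of the 35 genes in all, among them Cd3e, Zap70, Lef1, Foxp3 and Tnfrsf18. Cd3g, the gamma chain, overlapped between the groups and was lower in PH20_TG (-2.16, SE 0.83, adjusted p = 0.703).

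Cd4, the co-receptor of helper and regulatory T cells (chromosome 6, 124864692 to 124888221), was at 14.8, 7.98, 0.482 and 0.545 FPKM in Has2_WT and at 0, 0.508, 0.146 and 0.427 in Has2_TG. It was at 16.7, 0.426, 4.83 and 1.02 in PH20_WT and at 0, 0.187, 0.446 and 0.557 in PH20_TG. Its low controls were within or close to the transgenic range. Cd4 differed by a log2 fold change of -3.12 (SE 1.10, adjusted p = 0.360) in Has2_TG and -3.05 (SE 1.07, adjusted p = 0.702) in PH20_TG, both called, and without the rich controls neither was, at -1.04 (SE 0.76, adjusted p = 0.732) and -1.27 (SE 0.82, adjusted p = 0.999).

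Cd8a, the alpha chain of the co-receptor of cytotoxic T cells (chromosome 6, 71373427 to 71379173), was at 24.1, 9.004, 0.810 and 0 FPKM in Has2_WT and at 1.31, 0.911, 0 and 0.289 in Has2_TG. It was at 31.8, 0.856, 11.4 and 0.856 in PH20_WT and at 0.433, 0.691, 1.43 and 1.43 in PH20_TG. Cd8a did not pass in either study, with log2 fold changes of -2.12 (SE 1.57, adjusted p = 0.708) and -2.10 (SE 1.11, adjusted p = 0.731). Its partner chain Cd8b1 was among the genes that turned round in the PH20 study, from -1.79 (SE 1.83, adjusted p = 0.844) with all libraries, not called, to a called 1.86 (SE 0.73, adjusted p = 0.999) without the rich controls, when PH20_WT2 at 0.171 and PH20_WT4 at 0 FPKM were set against 0.236 to 0.994 in PH20_TG.

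Of the other surface proteins, Cd2, an adhesion receptor, was lower in PH20_TG (log2 fold change -2.01, SE 0.72, adjusted p = 0.702) and was not called in Has2_TG (-1.98, SE 1.00, adjusted p = 0.569). Cd7, a receptor of T and NK cells, was lower in Has2_TG at -2.59 (SE 1.00, adjusted p = 0.415) and in PH20_TG at -1.24 (SE 0.45, adjusted p = 0.703). Cd7 followed the rich controls less closely than most, with PH20_WT2 just below Has2_WT2, the lowest of the 4 at 5.01 FPKM. Cd5 and Cd6, scavenger-like receptors that temper receptor signalling and lie side by side on chromosome 19, did not pass, with Cd5 at 7.94 to 20.7 FPKM in the 4 rich controls and at 0 reads in 7 of the other 12 libraries.

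Cd28, the main co-stimulatory receptor of naive T cells (chromosome 1, 60716800 to 60773359), was at 3.98, 1.11, 0.192 and 0.239 FPKM in Has2_WT and at 0, 0.285, 0 and 0 in Has2_TG. It was at 3.89, 0.623, 1.41 and 0.291 in PH20_WT and at 0.0858, 0.107, 0.166 and 0.138 in PH20_TG. The PH20 groups did not overlap, while in the Has2 study only Has2_TG2 reached the controls. Cd28 differed by a log2 fold change of -2.58 (SE 0.90, adjusted p = 0.357) in Has2_TG and -2.36 (SE 0.66, adjusted p = 0.664) in PH20_TG. Without the rich controls it was -1.17 (SE 0.72, adjusted p = 0.674) and -1.26 (SE 0.44, adjusted p = 0.999), so the Has2 call was lost and Cd28 was one of the 3 genes still lower in PH20_TG. It was the T cell gene with the smallest unadjusted p-value in the PH20 study.

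Cd27, a co-stimulatory receptor of the TNF receptor family, was lower in Has2_TG (-2.68, SE 1.04, adjusted p = 0.422) and not called in PH20_TG (-1.49, SE 1.39, adjusted p = 0.832). Icos, the inducible co-stimulator, did not pass, with -1.07 (SE 1.18) and -1.02 (SE 1.16). Ctla4, the inhibitory counterpart of Cd28, was at 1.22 to 3.32 FPKM in the 4 rich controls and at no more than 0.272 in the other 12, with 0 reads in 6 of them, and was not tested in either study. Cd28, Ctla4 and Icos lie next to each other on chromosome 1.

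Among the signalling molecules, Lat (chromosome 7, 126363824 to 126369570) was at 13.1, 13.3, 0.937 and 1.55 FPKM in Has2_WT and at 1.58, 0.805, 0.328 and 0 in Has2_TG. It was at 32.2, 0.689, 12.3 and 1.22 in PH20_WT and at 0.464, 0.745, 1.43 and 1.07 in PH20_TG. Has2_TG1 lay above both low Has2_WT libraries, and the groups overlapped in both studies. Lat differed by a log2 fold change of -3.05 (SE 1.06, adjusted p = 0.355) in Has2_TG and -2.24 (SE 1.10, adjusted p = 0.731) in PH20_TG, of which the first was called, and neither was without the rich controls, at -1.37 (SE 1.02, adjusted p = 0.734) and -0.09 (SE 0.46, adjusted p = 0.999).

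Zap70 (chromosome 1, 36761798 to 36782818) was at 12.7, 1.44, 5.76 and 1.23 FPKM in PH20_WT and at 0, 0.101, 0.721 and 1.27 in PH20_TG, where PH20_TG4 lay just above PH20_WT4. It was at 7.91, 6.63, 0.709 and 0 in Has2_WT and at 0.583, 0.725, 0 and 1.04 in Has2_TG. Its log2 fold change was -3.19 (SE 0.99, adjusted p = 0.666) in PH20_TG and -1.52 (SE 1.36, adjusted p = 0.769) in Has2_TG, the first called. Without the rich controls neither was, and the PH20 value was -1.89 (SE 1.05, adjusted p = 0.999) and the Has2 value turned to 0.82 (SE 1.16, adjusted p = 0.884). Lck, the most abundant of the 9 signalling genes, was at 14.1 to 40.9 FPKM in the 4 rich controls and 0.268 to 2.32 elsewhere, and was lower in PH20_TG (-2.12, SE 0.89, adjusted p = 0.731) and not called in Has2_TG (-1.61, SE 1.27, adjusted p = 0.731).

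The other 6 signalling genes were rare. Themis, needed for T cell selection in the thymus, the adhesion adaptor Skap1 and the Tec family kinase Txk were tested in both studies and did not pass, with log2 fold changes between -1.81 and -1.33. Ubash3a, a phosphatase that restrains receptor signalling, was tested in the PH20 study alone and not called (-1.67, SE 0.84, adjusted p = 0.731). Sh2d1a, the adaptor SAP, reached 0.365 to 0.992 FPKM in the 4 rich controls and Trat1, an adaptor of the receptor, 0.492 to 2.13, and neither had the reads for a test.

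None of the 3 transcription factors was called in either study. Lef1, a factor of naive T cells (chromosome 3, 131110471 to 131224356), was at 4.06, 2.49, 0.0603 and 0 FPKM in Has2_WT and at 0, 0.0274, 0 and 0 in Has2_TG. It was at 7.51, 0.0362, 2.47 and 0 in PH20_WT and at 0, 0.120, 0.0477 and 0.0399 in PH20_TG. Its highest library was 197 times the median of the 16, the widest such gap among the 35 genes, and the groups overlapped through the low controls. Lef1 differed by a log2 fold change of -2.60 (SE 1.18, adjusted p = 0.509) in Has2_TG and -2.30 (SE 1.34, adjusted p = 0.745) in PH20_TG.

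Bcl11b, which fixes T cell identity in the thymus (chromosome 12, 107910403 to 108003602), was at 6.18, 2.001, 0.0508 and 0 FPKM in Has2_WT and at 0, 0.126, 0.0329 and 0.0767 in Has2_TG. It was at 5.79, 0.204, 1.86 and 0.133 in PH20_WT and at 0.158, 0.0620, 0.118 and 0.3202 in PH20_TG, where PH20_TG4 lay above both low controls. Neither study gave a call, with -2.14 (SE 1.24, adjusted p = 0.634) and -1.93 (SE 0.99, adjusted p = 0.731). Tcf7, the factor TCF-1, was the most abundant of the 3 at 21.5 to 55.3 FPKM in the 4 rich controls and at no more than 2.65 elsewhere, and did not pass either (-2.76, SE 1.60, adjusted p = 0.632, and -1.76, SE 1.41, adjusted p = 0.807).

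Of the homing and cytokine receptors, Ccr7, which guides naive T cells into lymph nodes, was at 14.3 to 44.4 FPKM in the 4 rich controls. In the other 12 libraries it was at 0 in Has2_WT4, Has2_TG1, Has2_TG3, PH20_WT2 and PH20_WT4 and at no more than 1.23 elsewhere. Its PH20 log2 fold change was -1.44 (SE 1.95, adjusted p = 0.881) with all libraries, not called, and a called 2.55 (SE 0.55, adjusted p = 0.999) without the rich controls. That reversal sets 0 reads in both remaining PH20_WT libraries against 9 to 26 reads in PH20_TG. Il7r, the receptor that keeps naive and memory T cells alive, was not called in either study, and the library labelled PH20_TG1 held 3.59 FPKM against 0.259 to 0.692 in the other PH20_TG libraries.

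Il2rb, the beta chain of the interleukin-2 and interleukin-15 receptors, which NK cells also carry (chromosome 15, 78479256 to 78495271), was at 6.77, 6.56, 2.16 and 1.80 FPKM in Has2_WT and at 1.42, 2.02, 1.05 and 1.90 in Has2_TG. It was at 14.3, 5.87, 9.19 and 3.79 in PH20_WT and at 3.29, 2.96, 3.33 and 3.55 in PH20_TG. It was detected in all 16 libraries, and the PH20 groups did not overlap. The log2 fold change was -1.18 (SE 0.46, adjusted p = 0.422) in Has2_TG and -1.14 (SE 0.35, adjusted p = 0.666) in PH20_TG. Both were called. Without the rich controls neither was, at -0.33 (SE 0.34, adjusted p = 0.821) and -0.51 (SE 0.22, adjusted p = 0.999). Il2ra, the alpha chain of the interleukin-2 receptor, high on regulatory T cells, was lower in PH20_TG (-1.32, SE 0.58, adjusted p = 0.731), a call lost in 6 of 8 fits that left out a library.

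Foxp3, the factor that defines regulatory T cells (chromosome X, 7579676 to 7595243), was at 2.22, 1.73, 0.0295 and 0 FPKM in Has2_WT and at 0, 0.121, 0 and 0.120 in Has2_TG. It was at 3.37, 0.0956, 1.04 and 0.430 in PH20_WT and at 0, 0.0378, 0.0902 and 0 in PH20_TG. In the PH20 study the groups did not overlap, though PH20_WT2 and PH20_TG3 had 6 reads each, and the log2 fold change was -2.65 (SE 0.82, adjusted p = 0.666). It was called with all libraries and not without the rich controls, at -1.34 (SE 0.62, adjusted p = 0.999). In the Has2 study Foxp3 was too rare for the test. The gene Ccdc22 overlaps Foxp3 on the opposite strand.

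Tnfrsf18, the receptor GITR that regulatory T cells carry at high levels (chromosome 4, 156026164 to 156028895), was at 4.09, 4.52, 1.82 and 4.09 FPKM in Has2_WT and at 0, 1.30, 0.421 and 1.66 in Has2_TG. Every Has2_TG library lay below every Has2_WT library, which 2.11% of all genes tested showed, and Tnfrsf18 was the only T cell gene to do so in the Has2 study. The log2 fold change was -2.56 (SE 0.81, adjusted p = 0.290), and -2.24 (SE 1.09, adjusted p = 0.595) without Has2_WT1 and Has2_WT2, so its size held and its call did not. In PH20_WT it was at 7.39, 2.63, 2.96 and 3.46 and in PH20_TG at 1.11, 3.63, 2.44 and 1.43, with overlap and a log2 fold change, not called, of -0.92 (SE 0.42, adjusted p = 0.731). Has2_TG1, with 0 reads of Tnfrsf18, detected 15912 genes, near the fewest of any library, and without it the Has2 value was -1.70 and still called.

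**Figure D4:**
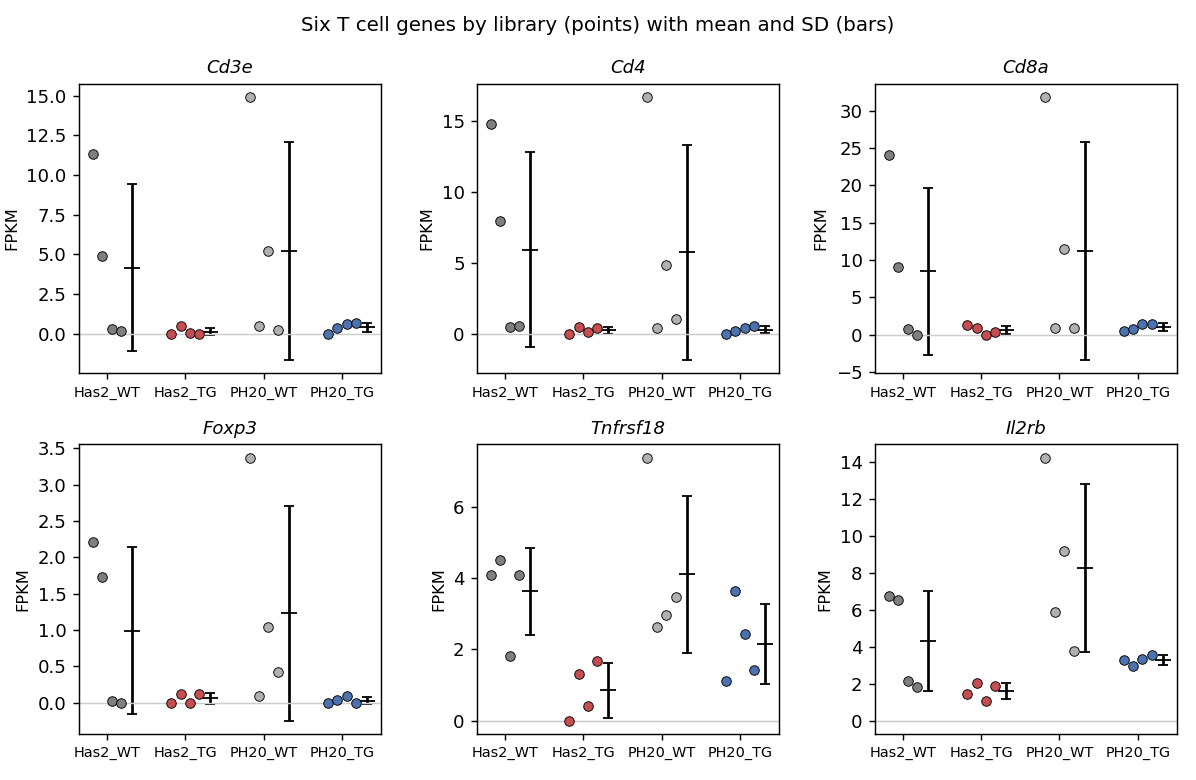
FPKM of Cd3e, Cd4, Cd8a, Foxp3, Tnfrsf18 and Il2rb in each library (points, by group) with the group mean and SD (bar beside the points, n = 4), each on its own linear axis. In Cd3e, Cd4 and Cd8a 2 of 4 control points stand far above all others, while Tnfrsf18 in Has2_TG lies below every Has2_WT point, from 0 to 1.66 against 1.82 to 4.52 FPKM.

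The 2 transgenes were set against each other in a fit of all 16 libraries. Of 32 T cell genes tested for a difference between the PH20 and Has2 effects, none was called in either direction at an unadjusted p under 0.05 with limma or with voom weights, while 4.03% and 3.68% of all genes were. Without the rich controls Cd247 was lower (-1.86, SE 0.74), against 2.37% of all genes lower and 3.32% higher. With all libraries the differences ran from -1.66 for Zap70 (SE 1.84, adjusted p = 0.881) to 1.65 for Ccr7 (SE 2.80, adjusted p = 0.939), and that of Tnfrsf18 was 1.64 (SE 1.00, adjusted p = 0.729). With standard errors of this size the comparison does not show that the effects were alike.

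To compare the T cell genes with one another, some were set against the CD3 chains of the same library. In the 4 rich controls the Cd8a over Cd3e ratio of FPKM was 1.85 to 2.17, Cd4 over Cd8a 0.423 to 0.886, Ccr7 over Cd3e 1.72 to 3.57 and Foxp3 over Cd3e 0.196 to 0.354. Tnfrsf18 over Cd3e was 0.362 to 0.926 in these libraries and 2.18 to 22.8 in the others that had Cd3e reads, and Il2rb over Cd3e was 0.599 to 1.75 against 4.03 to 15.2. The levels of Tnfrsf18 and Il2rb in the poor libraries thus did not scale with Cd3e. For Foxp3, Tnfrsf18, Ctla4, Il2ra, Ccr7, Cd4 and Cd8a, the log2 level relative to Cd3d, Cd3e and Cd3g was compared between groups by exact permutation test, two-sided, in both studies. None of the 14 tests passed, with the smallest exact p = 0.0857 for Ctla4 in the PH20 study (adjusted p = 0.457), where the smallest p the design allows is 0.0286. The difference for Foxp3 was 0.77 in the Has2 study (exact p = 0.143) and -0.29 in the PH20 study (exact p = 0.6). In the poor libraries the CD3 chains had 0 to 92 reads each, so these ratios rest on few reads.

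The rest of the pathway was read from lists of other genes, without a test of the list. For these lists and those that follow, the share over all genes tested was 3.75% lower and 6.25% higher in Has2_TG. In PH20_TG it was 3.39% lower and 3.2% higher. Of 25 further T cell receptor signalling genes, 23 were tested in each study, 3 were lower in PH20_TG and none was higher in either study. Malt1 was lower in Has2_TG with a log2 fold change of -0.90 (SE 0.35), and those lower in PH20_TG were Prkcq, with a log2 fold change of -2.11 (SE 0.69), Nfatc1, with -0.49 (SE 0.17), and Grap2, with -2.24 (SE 0.93). Without the rich controls none of these 4 was called.

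Among cytotoxic and NK cell genes, 3 of 9 tested were lower in PH20_TG, namely Klrd1 (-1.42, SE 0.43), Nkg7 (-1.19, SE 0.47) and Ccl5 (-1.92, SE 0.77), and 0 of 6 in Has2_TG. Of the T helper and innate lymphoid list 0 of 7 and 0 of 5 were called. Of the gamma delta list, Sox13 was higher in Has2_TG (0.59, SE 0.22) and Blk, also a B cell kinase, lower in PH20_TG (-3.47, SE 1.09), out of 2 tested in each. Of other regulatory T cell genes 0 of 5 were called in Has2_TG, and Lrrc32 was higher in PH20_TG (0.42, SE 0.17) out of 4. Of 8 naive recirculation genes, Satb1 was lower in Has2_TG (-1.51, SE 0.58) with no overlap.

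Genes of other cells moved as follows, where 3.75% of all genes were lower and 6.25% higher in Has2_TG, and 3.39% and 3.2% in PH20_TG. Of 17 B cell genes tested, 6 were lower in Has2_TG, among them Fcrla (-4.21, SE 1.18), Fcmr (-4.59, SE 1.66) and Spib (-3.53, SE 1.47), and 7 in PH20_TG, among them Fcer2a (-3.85, SE 1.14), Spib (-3.13, SE 1.06) and Cd79a (-3.75, SE 1.28). The rich controls were named for their high B cell genes. Without them 1 was lower and 3 higher in Has2_TG (3.53% and 5.78% of all genes). In PH20_TG 3 were lower and 0 higher (2.09% and 2.51%). Of the lymph node stroma list, Lyve1, also a marker of lymphatic vessels and of some macrophages, was higher in Has2_TG (0.82, SE 0.36) out of 5 tested, and 0 of 6 were called in PH20_TG. Of 12 macrophage genes, 8 were higher in Has2_TG, led by the complement genes C1qb (1.00, SE 0.20) and C1qc (0.83, SE 0.22) and by Cd14 (1.10, SE 0.33), and 0 in PH20_TG. Of 8 dendritic cell genes, Cd209a was higher in Has2_TG (0.73, SE 0.30) and 0 were called in PH20_TG. Of 12 adipocyte genes, Slc2a4, the insulin-responsive glucose transporter, was lower in Has2_TG (-0.55, SE 0.22) and 0 were called in PH20_TG. Of 11 skeletal muscle genes, 0 were called in Has2_TG and 10 were lower in PH20_TG, led by Mylpf (-3.60, SE 0.96), Tnni2 (-4.32, SE 1.16) and Tnnt3 (-4.02, SE 1.13). The FPKM summed over the muscle list was 269 to 1128 in PH20_WT and 11.2 to 319 in PH20_TG, with overlap between PH20_WT1 and PH20_TG4. The part of these other cell types in the T cell values was not tested. The fits without the rich controls and with the B cell level as a covariate cannot tell it, as the same libraries were highest in both.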

How the data were processed

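Bulk RNA of iWAT was sequenced in 16 libraries, 4 per group. Per the submitters' processing notes, the tools were FastQC 0.11.9, STAR 2.7.9a, MultiQC 1.12 and DESeq2, on GRCm38. The authors deposited FPKM per gene and library with each gene's length; their own statistical test was not used here. FPKM times length gave whole reads in 100% of 872512 values (tolerance 0.05), so the reads behind each value were recovered. The deposited values carry a scaling between libraries, a factor of 0.886 to 1.14. A value of 0 allows up to 3 reads, and such limits cover counting error only. Of the 560 values of the 35 genes, 85 were at 0 reads, 76 of them in the 7 libraries with the fewest genes detected (17327 or fewer). No 2 libraries agreed within sampling noise (smallest chi-square per degree of freedom 28.7 over 120 pairs).

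Transgenic and control libraries of a study were compared with limma 3.58.1 (R 4.3.3), two-sided, with a variance trend, on log2(FPKM + 0.1) of genes averaging 50 reads or more over its 8 libraries, and called at an unadjusted p under 0.05, the study's threshold. Fold changes are on that scale and understate changes of rare genes. Reported adjusted p-values are Benjamini-Hochberg values over all genes tested. The script was checked on simulated data. The T cell genes and all lists were chosen with earlier results of these data known. Genes named are every member called or not tested, values in every library are given for the smallest p in each role and study and for Cd3e, Cd4, Cd8a, Foxp3 and Tnfrsf18, and up to 3 genes of each other list. Promoter and position data came from RefSeq and the deposited table; 32 of 35 genes have the same position in GENCODE vM21, 19 overlap another gene and 13 an antisense one. Alternatives were a pseudocount of 1, other read minimums, scalings, voom weights, a fit of all 16 libraries, a replicate block, no variance trend, the B cell level as a covariate and leaving out each library. The fits without the controls rich in B cell and lymph node stroma genes were added after seeing the data and kept the genes of the main fit. Results of some genes of the other lists are not reported here.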

Additional observations from a re-analysis of the deposited data

Results flagged for a closer look

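Within 140 groups of 4 libraries, 12 values stood apart from the other 3 by Dixon's test, which flags about 1 group in 20 by chance. In the Has2_TG group these were Cd3e at 0.502, Cd5 at 0.408, Cd28 at 0.285 and Lef1 at 0.0274 FPKM in Has2_TG2, and Cd7 at 3.08, Lck at 0.460 and Themis at 0.0849 in Has2_TG1. Ccr7 stood apart at 1.23 FPKM in Has2_TG4. In the PH20_TG group, Il7r at 3.59 FPKM was high and Il2ra at 0.0920 low in the library labelled PH20_TG1, and Skap1 was high at 0.367 in PH20_TG4. Tnfrsf18 at 1.82 FPKM in Has2_WT3 was the only low value among the controls. For Cd5, Cd28, Lef1 and Themis the other 3 libraries were at 0 reads.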

How the results depend on the processing

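The T cell genes lower in Has2_TG numbered 8, and 0 after adjustment over all genes, 2 with voom weights, 13 with the replicate block, 0 with the B cell level as a covariate and 0 without the rich controls. Those lower in PH20_TG numbered 12, and 0 after adjustment, 3 with voom weights, 5 in the fit of all 16 libraries, 3 with the B cell covariate and 3 without the rich controls, where 3 and 2 were higher. Leaving out 1 library gave 1 to 25 lower in Has2_TG, 6 to 23 in PH20_TG, and 0 to 1 higher between the effects. One gene, Cd247, was lower between the effects without the rich controls. The other scalings, read minimums, pseudocount and variance model kept both counts within 1.5 times.

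Over all genes, Has2_TG gave 473 lower and 788 higher, against 0 and 13 after adjustment, and 800 lower with no minimum of reads. Leaving out 1 library gave 329 to 592 lower and 619 to 880 higher. PH20_TG gave 425 lower and 401 higher, 0 and 0 after adjustment, 669 and 633 with the block, 736 higher with no minimum and 262 lower without the rich controls, and leaving out 1 library gave 279 to 655 lower and 283 to 559 higher. Between the effects there were 507 lower and 463 higher, 0 and 0 after adjustment, 888 higher with no minimum and 298 lower without the rich controls, and 322 to 759 lower and 315 to 611 higher when 1 library was left out. Same-numbered libraries did not deviate together in every pair (correlations of -0.18 to 0.42). In the PH20 study numbers 1 and 2 were at 0.35 and 0.42, above all other pairs, and numbers 3 and 4 at -0.03 and -0.04. Whether the numbers pair the libraries is thus not settled, and the block is given here only.

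Log2 fold changes that turned positive without the rich controls were, in Has2_TG, Cd3d 0.092, Cd3g 1.11, Cd247 1.06, Trac 0.47, Cd8a 0.69, Cd2 0.025, Cd6 0.34, Icos 1.10, Lck 1.00, Zap70 0.82, Skap1 0.053, Tcf7 0.24, Bcl11b 0.31, Ccr7 0.046 and Il2ra 0.52. In PH20_TG they were Trac 0.84, Cd8a 0.061, Cd8b1 1.86, Cd27 1.13, Icos 1.18, Themis 0.051, Txk 0.055, Tcf7 1.00, Lef1 0.32, Ccr7 2.55 and Il7r 1.71. With the B cell covariate those in Has2_TG were Cd3g 1.00, Cd247 1.01, Trac 0.42, Cd8a 0.52, Cd6 0.21, Icos 0.96, Lck 0.94, Zap70 0.66, Tcf7 0.059, Bcl11b 0.26 and Il2ra 0.42. In PH20_TG they were Trac 1.11, Cd8a 0.26, Cd8b1 2.15, Cd27 1.35, Icos 1.41, Lat 0.10, Themis 0.24, Skap1 0.15, Ubash3a 0.035, Txk 0.23, Tcf7 1.29, Lef1 0.57, Bcl11b 0.17, Ccr7 2.97 and Il7r 2.09. Leaving out 1 library took Ccr7 in PH20_TG from -2.77 to 0.16 and Il7r from -2.06 to 0.31, both positive without PH20_WT1.

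The levels relative to the CD3 chains depended on the reference and the pseudocount. Against Cd3e alone, Foxp3 and Ctla4 were higher in Has2_TG by 1.46 and 1.78 (exact permutation p = 0.0286 each), and Tnfrsf18, Ccr7 and Cd4 became 0.60, 0.071 and 0.039. With a pseudocount of 1, Ctla4 and Il2ra were higher in PH20_TG by 0.91 and 1.04 and Cd4 was at -0.28 in Has2_TG (exact permutation p = 0.0286 each), Foxp3 became 0.73, Ccr7 -0.11 and Cd8a -0.012 in PH20_TG, and Tnfrsf18 0.10 and Cd8a -0.10 in Has2_TG. Against 6 receptor genes, Cd4 was at -0.89 in PH20_TG (exact permutation p = 0.0286). Leaving out 1 library gave 0.56 to 1.15 for Foxp3 in Has2_TG and -0.46 to 0.083 in PH20_TG, 0.45 to 0.97 for Ctla4 in PH20_TG, -0.96 to 1.14 for Tnfrsf18 and -0.39 to 0.90 for Cd8a in Has2_TG. The cause of these changes was not tested.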
